A study of Mus musculus with 8 samples.

Results

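Arginine can be turned into polyamines through a short chain of enzymes, and 10 genes of that chain were followed here in 3 lymphoid progenitor populations of the mouse fetal liver. The members are the arginases Arg1 and Arg2, the ornithine-using enzymes Oat and Odc1, the regulators of Odc1 protein Azin1 and Oaz1, the enzymes that make the larger polyamines Amd1, Srm and Sms, and the acetylating enzyme Sat1. They were taken by gene symbol from the deposited expression table. All 10 were found among its 34745 genes, and 9 of them passed the filter on low counts that left 13436 genes for testing. Arg2 did not pass it.

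Bulk RNA was sequenced from untreated wild-type B6 mice, with no allele or agent that differs between groups. CLP (n = 3) is the gate of Flt3+ cells. ILCP (n = 3) is the gate of Flt3-negative cells with α4β7 and PD-1 but no CD94, and ILC1/3P (n = 2) that of Flt3-negative cells with α4β7 and CD94 but no PD-1. All 3 gates required CD45 and CD127 and left out cells with lineage markers or CD25. No label gives the day of gestation, and a label of 6 to 8 weeks stands against the stated fetal tissue. Nothing says that the libraries come from separate animals, so a p-value here reflects spread among libraries, which may be technical. The genes behind the gates followed the labels: Flt3 was at 459 CPM (counts scaled to a common library size) in CLP, 0.427 in ILCP and 0 in ILC1/3P, Pdcd1 (PD-1) at 0, 77.7 and 13.8, and Klrd1 (CD94) at 52.2, 44.7 and 1407. Total counts ranged from 4991939 to 8082476 per library. The CPM use a library size adjusted by TMM, a scaling that assumes most genes do not differ. Fold changes and adjusted p-values come from edgeR's quasi-likelihood test over all 13436 genes with Benjamini-Hochberg adjustment, and a gene was called where the adjusted p was under 0.05.

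As background, arginase splits arginine into urea and ornithine. Odc1 (ornithine decarboxylase) turns ornithine into putrescine, the first polyamine and the rate-limiting step, while Oat (ornithine aminotransferase) moves ornithine towards glutamate and proline. Srm adds an aminopropyl group to putrescine to give spermidine, Sms adds another to give spermine, and Amd1 makes the donor of that group from S-adenosylmethionine. Sat1 acetylates spermidine and spermine, which marks them for export or oxidation. Odc1 protein is short-lived because antizyme, the product of Oaz1, binds it and delivers it to the proteasome, and Azin1 is an inactive relative of Odc1 that holds antizyme away from it. In the innate lymphoid lineage Arg1 is known as a gene of group 2 innate lymphoid cells (ILC2) and of fetal innate lymphoid precursors.

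A sequence in Oaz1 lies at the centre of this feedback. Antizyme is made in full only where the ribosome shifts its reading frame at an early stop codon, an event that polyamines favour. The stretch is shown because Oaz1 is the most abundant regulator in these cells. In GENCODE M21 on GRCm38 it lies in the coding sequence at chr10:80828280-80828312, plus strand, and the stop codon that follows 68 codons is in capitals. The annotated shift skips the base at 80828295.
Oaz1: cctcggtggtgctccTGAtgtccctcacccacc

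Promoters are shown for the members whose RNA differed from CLP and whose start is in the RefSeq set used (GRCm38.p6). That set matched 6 of the 10 genes. Arg1, Arg2, Azin1 and Srm were not matched. Each window covers the 250 bases before the start. The Odc1 window is chr12:17544623-17544872 (plus strand), Sat1 chrX:155216450-155216699 (minus), Oaz1 chr10:80826406-80826655 (plus) and Amd1 chr10:40302189-40302438 (minus). Capitals mark GC boxes, GGGCGG or its reverse complement CCGCCC. The first 3 belong to genes that were higher in ILC1/3P and the last to a gene that was lower.
Odc1: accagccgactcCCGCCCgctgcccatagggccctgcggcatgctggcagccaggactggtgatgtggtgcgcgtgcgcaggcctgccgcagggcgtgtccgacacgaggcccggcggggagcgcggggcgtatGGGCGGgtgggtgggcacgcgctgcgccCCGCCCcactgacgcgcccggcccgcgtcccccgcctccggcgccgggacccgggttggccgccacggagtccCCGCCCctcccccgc
Sat1: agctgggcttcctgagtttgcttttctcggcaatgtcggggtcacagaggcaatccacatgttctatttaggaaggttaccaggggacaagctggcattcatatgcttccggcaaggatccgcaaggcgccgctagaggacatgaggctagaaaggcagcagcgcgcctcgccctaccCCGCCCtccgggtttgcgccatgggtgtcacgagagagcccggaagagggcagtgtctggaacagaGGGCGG
Oaz1: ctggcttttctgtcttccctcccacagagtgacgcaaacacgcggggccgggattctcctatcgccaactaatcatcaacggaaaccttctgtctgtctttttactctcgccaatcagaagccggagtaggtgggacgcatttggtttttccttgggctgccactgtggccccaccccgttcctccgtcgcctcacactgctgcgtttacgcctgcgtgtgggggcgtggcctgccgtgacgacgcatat
Amd1: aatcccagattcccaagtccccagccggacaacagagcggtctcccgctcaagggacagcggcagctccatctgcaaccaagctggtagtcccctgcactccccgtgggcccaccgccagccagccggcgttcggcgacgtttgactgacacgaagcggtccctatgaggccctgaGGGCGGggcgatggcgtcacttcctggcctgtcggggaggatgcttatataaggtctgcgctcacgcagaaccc

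The Odc1 window was the richest in G and C, at 80.0%, against 64.4% for Amd1, 59.6% for Sat1, 58.0% for Oaz1 and a median of 52.4% over all 32851 RefSeq windows. It held 4 GC boxes, Sat1 held 2, Amd1 held 1 and Oaz1 none. Over the 7 member windows, which include Oat and 2 starts of Sms, 4 held a GC box, against 32.7% of all windows. The E-box CACGTG, the letters bound by Myc, was in 1 of the 7, a window of Sms, against 6.0% of all windows. TATAAA was in 0 of the 7 and in 12.4% of all. Both strands were searched, and a match of letters is no evidence of binding. In the other Sms window 3 of the 4 GC boxes overlap each other.

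Arg1 separated the populations most among the members. It was close to absent in CLP and among the most abundant RNAs of ILCP and ILC1/3P, where its mean CPM stood above that of 99.7% and 98.3% of the genes tested. Arg1 (ENSMUSG00000019987, mm10 chr10:24915208-24927470) was at 1.70, 2.76 and 1.04 CPM in the 3 CLP libraries, at 1580.3, 1272 and 1719 CPM in the 3 ILCP libraries and at 1309 and 883 CPM in the 2 ILC1/3P libraries. The CLP values rest on 37 counts in all, the ILCP values on 32523. No library of ILCP or ILC1/3P overlapped CLP, while the higher ILC1/3P library lay inside the ILCP range.

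Arg1 rose from 1.83 ± 0.869 CPM (SD, n = 3) in CLP to 1524 ± 229 CPM (n = 3) in ILCP, 842-fold (log2 9.72 ± 0.41, SE, edgeR adjusted p = 2.66e-07). In ILC1/3P it was at 1096 ± 301 CPM (n = 2), 606-fold above CLP (log2 9.24 ± 0.41, adjusted p = 4.24e-07). Both calls held under every alternative run, with a highest adjusted p of 2.61e-05. ILC1/3P against ILCP gave -0.47 ± 0.31 (adjusted p = 0.326), which is no call. Scaled by library size alone, which moves the median of all genes in that comparison by -0.64, Arg1 was called lower in ILC1/3P (log2 -1.10, adjusted p = 0.0358). In bulk RNA, fewer cells with a gene and less of its RNA per cell cannot be told apart.

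Arg2, the mitochondrial arginase, did not take the place of Arg1 in any population. Arg2 (ENSMUSG00000021125, chr12:79130777-79156301) had 0, 9 and 8 counts in the CLP libraries, 0, 1.66 and 1.19 CPM, and no count in any ILCP or ILC1/3P library. With a floor of 3 counts pooled over the group without counts, the pooled CLP level was 5.77-fold above the floor of ILCP. It was 2.78-fold above that of ILC1/3P. These figures leave out the spread between libraries. CLP 1 also had 0 counts, so CLP overlapped both groups, and Arg2 was not tested. Its exons overlap the antisense genes Vti1b and Gm48780, and the use of strand is not given, so the 17 CLP counts cannot be assigned to Arg2 with certainty.

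Arginase is also made by hepatocytes and by macrophages, and both are present in fetal liver. Of 8 hepatocyte genes, 6 had a count in CLP, 4 in ILCP and 4 in ILC1/3P, and their summed level was 72.7 to 91.5 CPM in CLP, 28.2 to 74.0 in ILCP and 26.0 to 39.3 in ILC1/3P. Alb and Ttr had no count in ILCP or ILC1/3P, and Serpina1a had none in any library. Apoa2 went the other way, at 2.18, 2.44 and 9.90 CPM, and was not called. Fgb had 3 counts in ILC1/3P and none elsewhere. The 2 most abundant were Trf, at 62.2, 32.8 and 9.10 CPM, and Afp, at 9.71, 19.7 and 13.4. Of 10 macrophage genes, 5, 6 and 5 had a count, with sums of 53.3 to 67.7, 8.29 to 22.4 and 28.8 to 47.7 CPM. Cd163 and Marco were at 0 in all 8 libraries and Mrc1 in ILCP and ILC1/3P. The most abundant were Cd68, at 28.9, 12.6 and 16.5 CPM, and Csf1r, at 26.9, 2.03 and 3.27. The macrophage sum was lower in every ILCP and ILC1/3P library than in CLP, but its members did not go 1 way. The complement genes C1qb (1.27, 0.427 and 8.56 CPM) and C1qc (1.68, 2.07 and 9.22) were at their highest in ILC1/3P, and C1qa had 6 counts there and none elsewhere. None of the 4 macrophage genes tested was called, and their median log2 change against CLP was -1.38 in ILCP and 0.82 in ILC1/3P. The part of hepatocyte or macrophage RNA in the Arg1 level was not tested.

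Some ILC2 genes were higher where Arg1 was higher. Of the 10 listed, 4 had a count in CLP, 8 in ILCP and 7 in ILC1/3P, and their sum was 33.4 to 52.2, 741 to 869 and 560 to 604 CPM. Of the 8 tested, 3 rose against CLP in ILCP and 3 in ILC1/3P, namely Icos, Il17rb and Klrg1, and none was called between ILC1/3P and ILCP. Of all genes tested, 3.91% and 11.8% rose in the comparisons with CLP. The median log2 change of the 8 was 5.25 in ILCP and 3.46 in ILC1/3P against CLP, or 3.78 and 3.14 with genes absent from a group set at their bound of 3 counts. However, 4 of the 8, Il17rb and Klrg1 among them, had no count in CLP. They passed the filter only through the other groups and could not come out lower against CLP. The medians are partly fixed by this, and the bound does not remove it. Icos, a costimulatory receptor, carried most of the sum at 33.8 CPM in CLP, 669.9 in ILCP and 503 in ILC1/3P. Il5 had 29 counts in ILCP and none elsewhere, Il13 38 counts in ILC1/3P and none elsewhere, and Bmp7 none at all. Ptgdr2, at 3.33, 2.24 and 0.987 CPM, was highest in CLP and was not called, and Il9r had 105 counts in ILCP and 0 in ILC1/3P. The part of such cells in the Arg1 level was not tested.

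Among 6815 tested genes with at least 20 CPM in their highest group, with predicted genes, pseudogenes and receptor segments set aside, the patterns nearest to Arg1 over the 8 libraries were those of Txk, Il22, Ccr8, Tnfrsf9 and Lgals3, with a root mean square difference of centred log2 CPM of 0.40, 0.44, 0.47, 0.92 and 0.93. Txk, a Tec-family kinase, went from 0 CPM in CLP to 270.1 ± 52.0 in ILCP and 136 ± 12.6 in ILC1/3P. Ccr8, a chemokine receptor, went from 0 to 243 ± 37.5 and 299 ± 96.0. Txk, Il22, Ccr8 and Tnfrsf9 were at 0 CPM in CLP, so their CLP values in this measure are set by the prior count of 2. Their nearness to Arg1 depends in part on that setting. No other member was near: Odc1 came closest at 3.69. Il22 shares sequence with Iltifb, so its counts are uncertain.

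**Figure D1:**
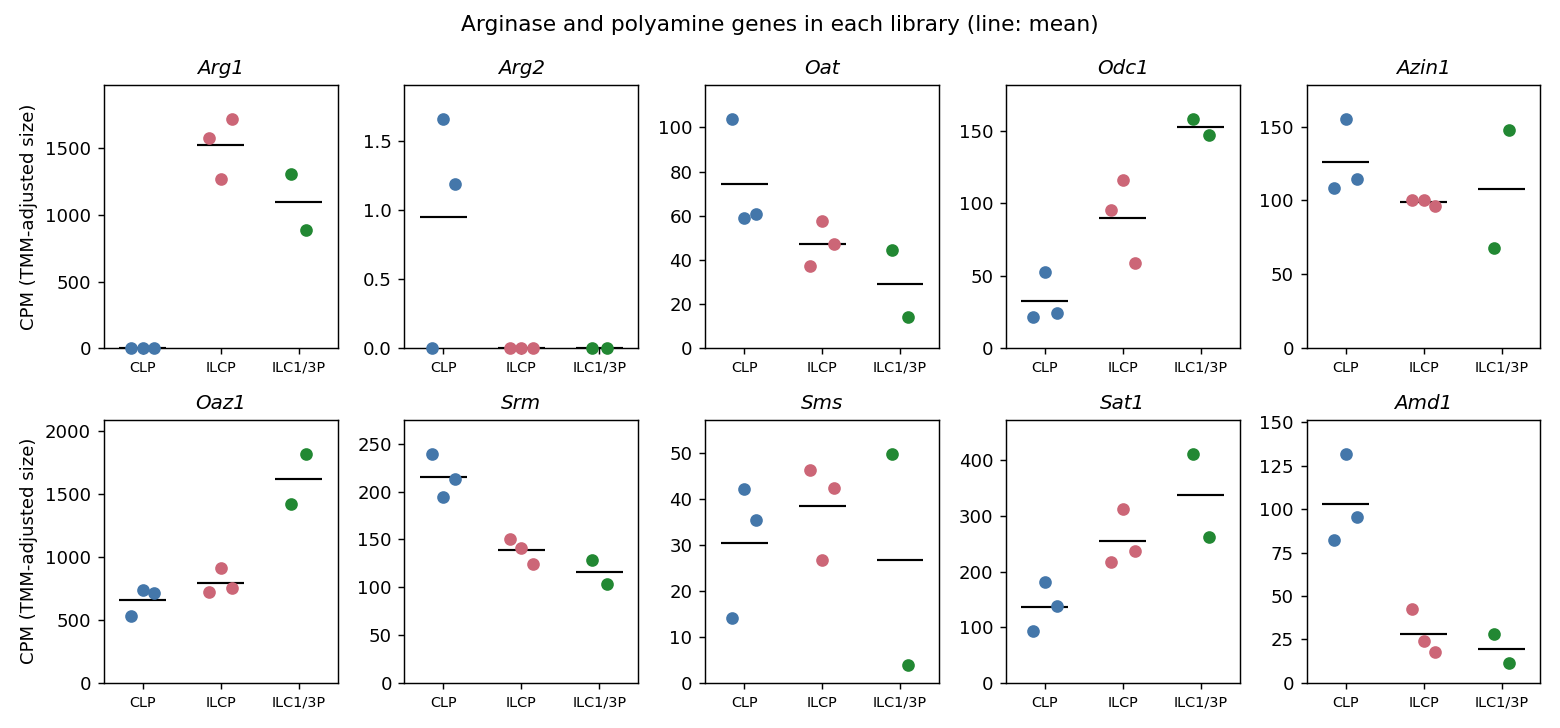
CPM of each of the 10 genes (y axis, own scale per panel) in every CLP, ILCP and ILC1/3P library (x axis), with 1 point per library and a line at the group mean. Arg1 runs from under 2.76 CPM in CLP to between 883 and 1719 in the other libraries, Oaz1 is highest in both ILC1/3P libraries, Amd1 and Srm are highest in CLP, and the 2 ILC1/3P libraries lie far apart for Sms.

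Of the 9 tested members, ILCP against CLP called 3, with 2 higher and 1 lower, where 6.79% of all genes tested were called, 3.91% higher and 2.87% lower. ILC1/3P against CLP called 6, with 4 higher and 2 lower, where 23.5% of all genes were called, 11.8% higher and 11.7% lower. ILC1/3P against ILCP called 1, higher, and 0 lower, where 16.3% were called, 8.06% higher and 8.25% lower. No member was lower there at an unadjusted p under 0.05, and DESeq2 also called 0 lower. With library size scaling, however, Arg1 and Srm were called lower in that comparison. The members' median log2 change was 0.27, -0.18 and -0.26 in the 3 comparisons, next to 0.01, -0.25 and -0.23 over all genes tested. The comparisons share groups and are not independent of each other.

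Counting libraries that do not overlap, ILCP lay above CLP for 3 members and below it for 4 (14.1% and 14.0% of all genes tested). The figures were 4 and 3 for ILC1/3P against CLP (23.3% and 29.1%), and 2 and 0 for ILC1/3P against ILCP (20.2% and 24.7%).

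**Figure D2:**
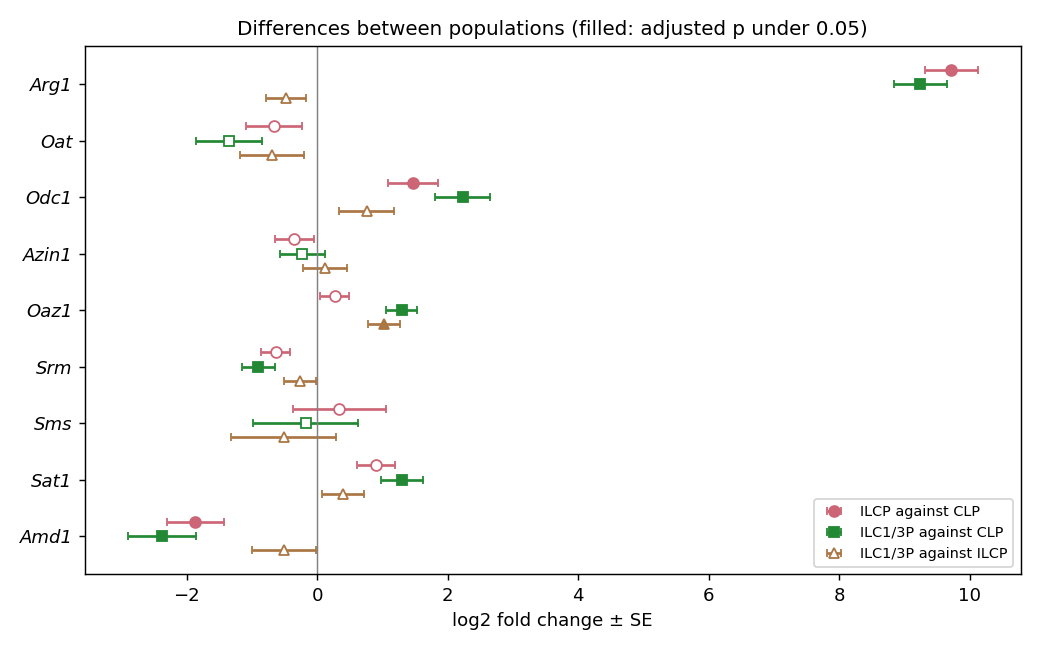
Log2 fold change with its standard error (x axis) of the 9 tested genes (y axis) in ILCP against CLP, ILC1/3P against CLP and ILC1/3P against ILCP, filled where the adjusted p is under 0.05. Arg1 stands near 9 to 10 against CLP, Odc1 and Amd1 are filled on opposite sides of 0 in both comparisons with CLP, and Oaz1 alone is filled in ILC1/3P against ILCP.

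Odc1, which commits ornithine to polyamines, rose in both innate lymphoid populations. Odc1 (ENSMUSG00000011179, chr12:17544873-17551502) was at 21.5, 52.2 and 24.0 CPM in CLP, at 95.1, 116 and 59.0 CPM in ILCP and at 158 and 147 CPM in ILC1/3P. The groups did not overlap in any pair, and their order was CLP, ILCP, ILC1/3P. The closest neighbours were the highest CLP library and the lowest ILCP library.

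From 32.6 ± 17.1 CPM (n = 3) in CLP, Odc1 was 2.77-fold higher at 90.1 ± 28.9 CPM (n = 3) in ILCP (log2 1.47 ± 0.39, adjusted p = 0.043). It was 4.69-fold higher at 152 ± 7.87 CPM (n = 2) in ILC1/3P (log2 2.23 ± 0.42, adjusted p = 0.00283). The difference between ILC1/3P and ILCP was 0.76 ± 0.42 (adjusted p = 0.249) and was not called. The ILC1/3P call held under all 12 alternatives. The ILCP call rests on single libraries: the adjusted p was 0.151 without CLP 1, 0.169 without CLP 3, 0.115 without ILCP 1 and 0.152 without ILCP 2, and it was also lost with library size scaling (0.0527) and in a fit of those 2 groups alone (0.0587).

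Odc1 has processed copies in the genome. Of the 50-base windows of its longest transcript, 42.2% also occur in 1 or more of 16 other genes, and the use of reads that fit several places is not given. The genes nearest to Odc1 in pattern were Ly96, Shcbp1, Tab2, Selt and Atp8b4, at 0.32 to 0.37, and the nearest member was Sat1 at 0.51.

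Ornithine has another outlet in Oat, and this gene stood in the opposite order. Oat (ENSMUSG00000030934, chr7:132557475-132576398) was at 104, 59.1 and 60.9 CPM in CLP, 37.1, 57.8 and 47.0 CPM in ILCP and 44.2 and 13.9 CPM in ILC1/3P. Both ILC1/3P libraries and all ILCP libraries lay below CLP, though the highest ILCP library was close to the lowest of CLP. No difference passed the test: log2 -0.66 ± 0.43 (adjusted p = 0.475) for ILCP and -1.35 ± 0.51 (adjusted p = 0.0757) for ILC1/3P against CLP. The latter was called with library size scaling (-2.01, adjusted p = 0.0234), with no filter (0.0203), by DESeq2 (0.0438) and without ILC1/3P 1 (-2.42, 0.0101).

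The antizyme gene Oaz1 was abundant everywhere and highest in ILC1/3P. Oaz1 (ENSMUSG00000035242, chr10:80826656-80829290) was at 529, 738 and 711 CPM in CLP, at 724, 908 and 752 CPM in ILCP and at 1415 and 1814 CPM in ILC1/3P. Both ILC1/3P libraries exceeded all 6 others, and CLP and ILCP overlapped.

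Oaz1 was 2.45-fold higher in ILC1/3P (1615 ± 282 CPM, n = 2) than in CLP (659 ± 113 CPM, n = 3), a log2 change of 1.29 ± 0.24 (adjusted p = 0.00276). It was the member called between the innate lymphoid populations, 2.03-fold above ILCP (795 ± 99.3 CPM, n = 3; log2 1.02 ± 0.24, adjusted p = 0.015). ILCP against CLP gave 0.27 ± 0.22 (adjusted p = 0.607). The call against CLP held under all 12 alternatives. The call against ILCP was lost with library size scaling (0.38, adjusted p = 0.180) and without ILCP 1 (0.0593), ILCP 3 (0.0629) or ILC1/3P 2 (0.0990).

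Oaz1 has a copy, Oaz1-ps, which shares 52.2% of the 50-base windows, and shared reads may be split between them. Oaz1-ps held 573 ± 96.7 CPM in CLP, 676 ± 65.6 in ILCP and 1394 ± 193 in ILC1/3P, between 45.3% and 47.1% of the sum of both in every library. The true level of Oaz1 can therefore be near that sum, while the split was close to equal in all populations. With the counts of both added, the log2 change of ILC1/3P was 1.29 ± 0.24 against CLP (adjusted p = 0.00252) and 1.03 ± 0.24 against ILCP (adjusted p = 0.0131).

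Azin1, which spares Odc1 by binding antizyme, did not follow Oaz1. Azin1 (ENSMUSG00000037458, chr15:38487430-38519266) was at 109, 155 and 115 CPM in CLP, at 100.1, 100.3 and 96.4 CPM in ILCP and at 67.9 and 148 CPM in ILC1/3P. The ILCP libraries were close to each other and just below all CLP libraries, while the 2 ILC1/3P libraries enclosed them. The log2 change was -0.35 ± 0.30 (adjusted p = 0.639) in ILCP and -0.23 ± 0.34 (adjusted p = 0.679) in ILC1/3P against CLP, and neither was called. ILC1/3P against ILCP was 0.12 ± 0.34 (adjusted p = 0.860), and its direction turned with library size scaling, to -0.54.

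Levels of these genes were set against each other per length, as CPM per kb of the longest coding transcript. Oaz1 exceeded Odc1 by 50.7, 29.1 and 61.0 times in CLP, by 15.7, 16.1 and 26.3 times in ILCP and by 18.5 and 25.5 times in ILC1/3P. Every ILCP and ILC1/3P ratio was below every CLP ratio. Oaz1 exceeded Azin1 by 22.2, 21.7 and 28.2 times in CLP, by 32.9, 41.2 and 35.5 times in ILCP and by 94.8 and 55.9 times in ILC1/3P. This ratio rose without overlap from CLP to ILCP to ILC1/3P. On the log2 scale the mean balance of Odc1 to Oaz1 differed from CLP by 1.25 in ILCP and 1.05 in ILC1/3P, and that of Azin1 to Oaz1 by -0.61 and -1.61. The size of the ratios depends on the lengths used. By the deposited FPKM, Oaz1 exceeded Odc1 by 6.69 to 14.0 times in CLP, 3.60 to 6.04 in ILCP and 4.25 and 5.86 in ILC1/3P. For Azin1 the figures were 12.2 to 15.8, 18.5 to 23.1, and 53.2 and 31.4. The order of the libraries is the same on both scales by construction, since each divides the same counts by a fixed length per gene. These ratios were given no test, and any reads lost to Oaz1-ps would lower all of them alike.

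**Figure D3:**
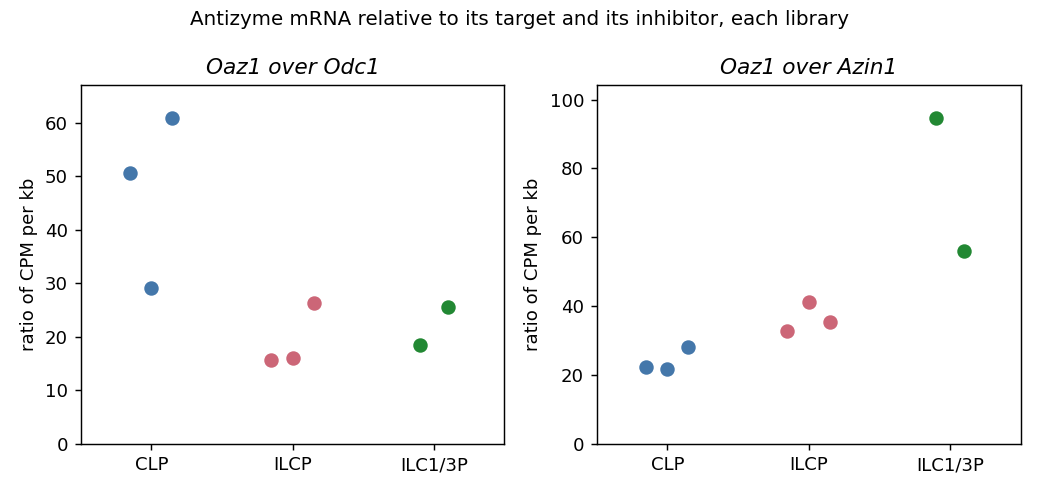
Ratio of CPM per kb of Oaz1 over Odc1 (left) and Oaz1 over Azin1 (right) in each library, 1 point per library. The CLP points of the left panel lie between 29.1 and 61.0, above all others, and in the right panel the ILC1/3P points, 55.9 and 94.8, are the highest.

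Amd1, which supplies the aminopropyl group, fell in both innate lymphoid populations. Amd1 (ENSMUSG00000075232, chr10:40287458-40302188) was at 82.2, 132 and 95.3 CPM in CLP, at 42.2, 24.2 and 18.0 CPM in ILCP and at 28.0 and 11.3 CPM in ILC1/3P. All 5 ILCP and ILC1/3P libraries were below CLP, and they overlapped each other.

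From 103 ± 25.7 CPM (n = 3) in CLP, Amd1 was 3.66-fold lower at 28.1 ± 12.6 CPM (n = 3) in ILCP (log2 -1.87 ± 0.44, adjusted p = 0.0234). It was 5.21-fold lower at 19.7 ± 11.8 CPM (n = 2) in ILC1/3P (log2 -2.38 ± 0.52, adjusted p = 0.00648). Between ILC1/3P and ILCP the change was -0.51 ± 0.49 (adjusted p = 0.525). The ILC1/3P call held under all 12 alternatives, with a highest adjusted p of 0.0492. The ILCP call was lost without CLP 2 (0.116), CLP 3 (0.0705), ILCP 2 (0.0881) or ILCP 3 (0.104).

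Amd1 is the member most exposed to copies: 87.6% of its windows occur in another gene, and 86.1% of all its windows occur in Amd2. Amd2 was at 15.0 ± 3.68 CPM in CLP, 3.61 ± 1.06 in ILCP and 4.11 ± 0.466 in ILC1/3P, and was not called (log2 -2.05 ± 0.74, adjusted p = 0.138, and -1.86 ± 0.85, adjusted p = 0.139, against CLP). With the counts of Amd1 and its near-identical copies added, the change was -1.95 ± 0.38 in ILCP (adjusted p = 0.00758) and -2.29 ± 0.45 in ILC1/3P (adjusted p = 0.00339). The lower level thus held for this sum. It leaves out reads on copies that share fewer windows or are missing from the deposited data, and any reads that were not counted.

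Srm, the spermidine synthase, was lower in ILC1/3P. Srm (ENSMUSG00000006442, chr4:148591503-148594993) was at 239, 195 and 213 CPM in CLP, 150.5, 141 and 125 CPM in ILCP and 128 and 103 CPM in ILC1/3P. All CLP libraries were above all others, and ILCP and ILC1/3P overlapped. ILC1/3P (116 ± 17.9 CPM, n = 2) was 1.87-fold below CLP (216 ± 22.5 CPM, n = 3; log2 -0.90 ± 0.25, adjusted p = 0.0235). ILCP (139 ± 13.0 CPM, n = 3) was at -0.64 ± 0.22 against CLP, with an adjusted p of 0.122 in edgeR and 0.0331 in DESeq2. The ILC1/3P call was lost without CLP 1 (0.0588), CLP 3 (0.0520) or ILC1/3P 2 (0.139). Between ILC1/3P and ILCP it was -0.26 ± 0.25 (adjusted p = 0.520), called only with library size scaling (-0.89, adjusted p = 0.0400).

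Sms, the spermine synthase, varied more within groups than between them. Sms (ENSMUSG00000071708, chrX:157443855-157492287) was at 14.1, 42.1 and 35.4 CPM in CLP, 46.4, 26.8 and 42.4 CPM in ILCP and 49.8 and 3.78 CPM in ILC1/3P. The ILC1/3P libraries held both the highest and the lowest value of all 8. The log2 change was 0.34 ± 0.71 (adjusted p = 0.897), -0.18 ± 0.80 (0.903) and -0.51 ± 0.81 (0.728) in the 3 comparisons. Without ILC1/3P 1 it was called lower, by -3.01 against CLP (adjusted p = 0.0239) and -3.34 against ILCP (adjusted p = 0.0214). The low library, ILC1/3P 2, had 16 counts of Sms, and 28.7% of the gene's windows are shared with Sms-ps.

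Sat1, which starts the breakdown and export of polyamines, rose in ILC1/3P. Sat1 (ENSMUSG00000025283, chrX:155213132-155216449) was at 92.4, 181 and 138 CPM in CLP, 217, 313 and 237 CPM in ILCP and 411 and 263 CPM in ILC1/3P. All 5 ILCP and ILC1/3P libraries exceeded CLP, and the lower ILC1/3P library fell inside the ILCP range.

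Sat1 was 2.46-fold higher in ILC1/3P (337 ± 105 CPM, n = 2) than in CLP (137 ± 44.2 CPM, n = 3), at log2 1.30 ± 0.32 (adjusted p = 0.0124). This call was lost with library size scaling (0.66, adjusted p = 0.134) and without ILC1/3P 1 (0.105). ILCP (256 ± 50.9 CPM, n = 3) against CLP gave 0.90 ± 0.29, with an adjusted p of 0.0992, and passed with no filter on low counts (0.0221) and by DESeq2 (0.0443). ILC1/3P against ILCP was 0.40 ± 0.32 (adjusted p = 0.444) and turned to -0.21 with library size scaling.

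Per length, the order of the genes within a population also differed. In CLP Oaz1 led at 615 ± 106 CPM per kb, followed by Srm at 161 ± 16.8 and Sat1 at 118 ± 38.1, whose ranges overlapped. Oat (34.6 ± 11.7), Amd1 (32.2 ± 8.01) and Azin1 (25.9 ± 5.16) overlapped each other. Odc1 at 14.8 ± 7.73 overlapped Azin1 above it and Sms (8.22 ± 3.94) below it, and Arg1 at 1.24 ± 0.588 was next to last.

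In ILCP Arg1 led at 1032 ± 155 CPM per kb, with every library above the highest for Oaz1 (742 ± 92.7). That order turns if the counts of Oaz1-ps are added to Oaz1, which gives 1373 ± 153 CPM per kb in ILCP. The sum was 1151 ± 195 in CLP and 2809 ± 444 in ILC1/3P. Sat1 (220.0 ± 43.8) and Srm (104 ± 9.75) followed, then Odc1 at 40.8 ± 13.1, whose lowest library (26.7) reached the range of Oat. Oat (17.2 to 26.8) and Azin1 (20.3 ± 0.449) were within their spread of each other, as were Sms (10.4 ± 2.78) and Amd1 (8.78 ± 3.93) at the end.

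In ILC1/3P Oaz1 was first again at 1508 ± 263 CPM per kb and Arg1 second at 742 ± 204. Sat1 (290.0 ± 90.3), Srm (86.5 ± 13.3) and Odc1 (69.0 ± 3.56) kept the ranks they had in ILCP. Azin1 (22.1 ± 11.6), Oat (13.5 ± 9.96), Sms (7.21 ± 8.76) and Amd1 (6.13 ± 3.67) overlapped. Odc1 thus ranked below Amd1 in CLP and above it in both other populations.

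**Figure D4:**
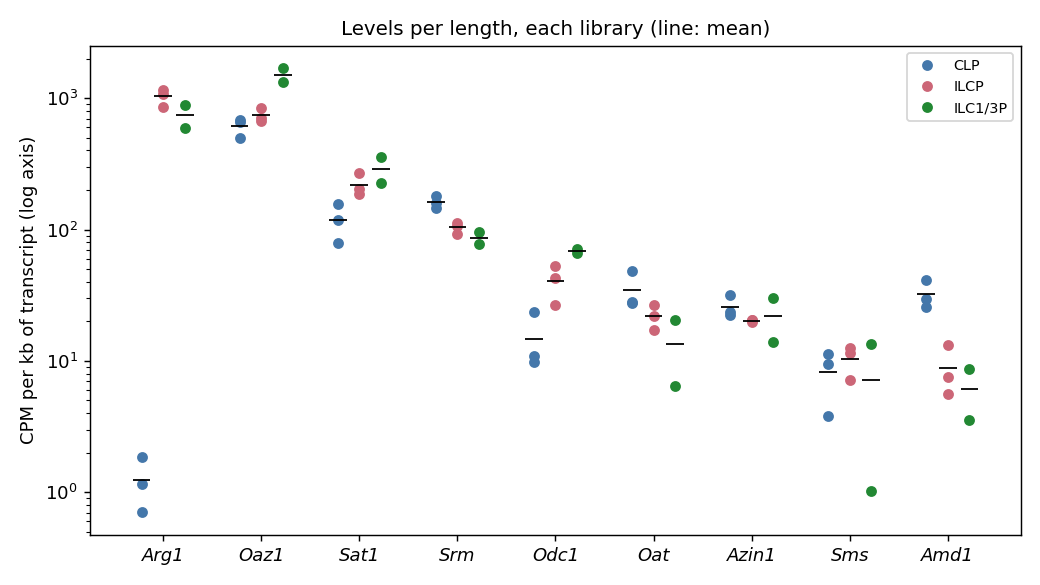
CPM per kb of the longest coding transcript (y axis, log scale) of the 9 tested genes (x axis) in each library, coloured by population, with a line at each mean. Mean Arg1 moves from 1.24 in CLP to 1032 in ILCP. The mean of Odc1 climbs over the 3 populations while those of Amd1 and Srm descend, and the low ILC1/3P point of Sms is at 1.02.

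The rest of the pathway was read from 54 further symbols in 10 lists. The table held 52, and 37 were tested. In ILCP against CLP 2 rose and 2 fell, in ILC1/3P against CLP 2 rose and 7 fell, and in ILC1/3P against ILCP 1 rose and 6 fell. That is 10.8%, 24.3% and 18.9% of them, next to 6.79%, 23.5% and 16.3% of all genes tested, so the share in both ILC1/3P comparisons was near the background. Their median log2 change was -0.21, -0.95 and -0.48 (-0.39 where a gene without counts in a group takes its bound), where all genes tested had 0.01, -0.25 and -0.23. In the 3 comparisons 1, 6 and 5 of the 37 had no count in a group compared, so these could change in 1 direction only.

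The lists also hold other genes around arginine. Ddah2, from the list on nitric oxide and citrulline recycling, fell stepwise from 92.3 ± 9.63 CPM in CLP to 22.2 ± 2.29 in ILCP and 0.884 ± 0.087 in ILC1/3P. Its log2 change was -2.06 ± 0.32 (adjusted p = 0.00185), -6.69 ± 0.50 (adjusted p = 6.68e-06) and -4.63 ± 0.47 (adjusted p = 0.000249) in the 3 comparisons. The inducible nitric oxide synthase Nos2, Ddah1 and the urea cycle genes Cps1 and Nags had no count in any library, and Otc had none in ILCP or ILC1/3P. Of the 4 tested uptake genes, Slc7a7 was called, lower in ILC1/3P, where it had 0 counts against 241 in CLP. Without a count there, Slc7a7 could not come out higher.

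Beyond Oat, ornithine and glutamate lead to proline through Aldh18a1 and Pycr1, among others. Pycr1 was at 8.62 ± 1.19 CPM in CLP, 51.9 ± 18.1 in ILCP and 6.31 ± 7.59 in ILC1/3P, higher in ILCP than in CLP (log2 2.59 ± 0.69, adjusted p = 0.0472) and lower in ILC1/3P than in ILCP (-3.01 ± 0.84, adjusted p = 0.0305). Aldh18a1, the first step from glutamate, was higher in ILC1/3P (44.9 CPM) than in ILCP (17.4 CPM), at 1.37 ± 0.42 (adjusted p = 0.0448).

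Among the regulators and the breakdown genes, Oaz2, a second antizyme, moved against Oaz1. It had 56.4, 43.7 and 14.1 CPM and fell in ILC1/3P against CLP (adjusted p = 0.0277). Azin2, a relative of Azin1, had 49 counts in CLP, 211 in ILCP and 0 in ILC1/3P, and was called lower in ILC1/3P against both. Without a count in ILC1/3P, Azin2 could not come out higher there. Smox, which oxidises spermine, rose from 10.7 ± 3.03 CPM in CLP to 36.1 ± 7.41 in ILCP (1.75 ± 0.43, adjusted p = 0.0306), and was at 27.6 ± 2.46 in ILC1/3P (1.36 ± 0.47, adjusted p = 0.0540). Sat2, a relative of Sat1, had 0, 72 and 64 counts and was called higher in ILC1/3P than in CLP. Without a count in CLP, Sat2 passed the filter only through the other groups and could not come out lower. Atp13a2, a lysosomal polyamine exporter, fell in ILCP (29.7 ± 18.8 to 5.10 ± 0.983 CPM, -2.54 ± 0.67, adjusted p = 0.0430).

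Amd1 draws on S-adenosylmethionine, which Mat2a makes with its regulatory subunit Mat2b. Mat2a was at 191, 143 and 72.9 CPM and fell in ILC1/3P against CLP (log2 -1.39 ± 0.31, adjusted p = 0.00685) and ILCP (-0.97 ± 0.30, adjusted p = 0.0491). Mat2b was at 293, 398 and 206 CPM and fell in ILC1/3P against ILCP (-0.95 ± 0.27, adjusted p = 0.0312). In the salvage of methionine from the by-product of Srm and Sms, Apip rose in ILC1/3P against CLP (68.2 to 189 CPM, 1.47 ± 0.31, adjusted p = 0.00508) while Adi1 fell (98.5 to 34.0 CPM, -1.53 ± 0.37, adjusted p = 0.0112). Of the 4 hypusine genes, which use spermidine to modify the translation factor Eif5a, edgeR called 0 in each comparison.

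**Figure D5:**
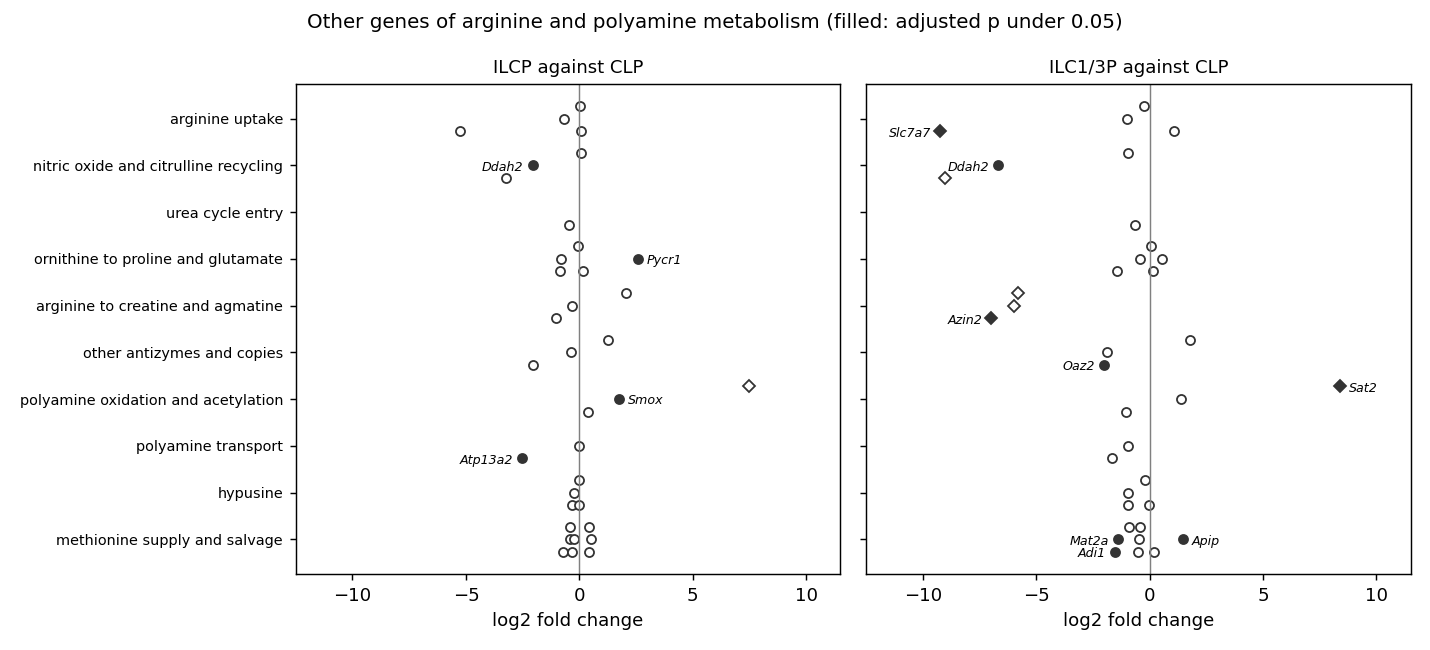
Log2 fold change (x axis) of tested pathway genes outside the 10, by list (y axis), in ILCP against CLP (left) and ILC1/3P against CLP (right), filled and named where the adjusted p is under 0.05. Diamonds are genes with no count in a group, whose position depends on the model's prior and is no measure of size. Ddah2 is filled in both panels, and 6 of the 8 filled points on the right lie below 0.

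Odc1 and Srm are textbook targets of Myc, and the Myc level was read beside the members. Myc was at 283, 223 and 271 CPM in CLP, 35.8, 48.4 and 33.5 CPM in ILCP and 13.5 and 16.8 CPM in ILC1/3P. It fell in ILCP (log2 -2.72 ± 0.27, adjusted p = 6.84e-05) and in ILC1/3P (-4.10 ± 0.34, adjusted p = 1.42e-05) against CLP, and in ILC1/3P against ILCP (-1.38 ± 0.30, adjusted p = 0.00978). Mycl had 13.5 ± 3.37 CPM in CLP and no count elsewhere. Mycn was at 6.75 ± 4.81, 7.81 ± 6.78 and 1.41 ± 0.327 CPM and was not called. By their means, Amd1 and Srm had the same order of populations as Myc, and Odc1 the opposite order. Unlike Myc, Amd1, Srm and Odc1 were not called between ILC1/3P and ILCP. The libraries of these populations overlapped for Amd1 and Srm. Whether Myc has a part in any of these levels was not tested.

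Some genes known from myeloid precursors had RNA in CLP as well. Neutrophil and granulocyte precursor genes summed to 509 to 761 CPM in CLP, 7.18 to 8.15 in ILCP and 5.67 to 30.3 in ILC1/3P, led by Mpo at 534, 0 and 0.0822 CPM and Prtn3 at 58.1, 2.04 and 9.15. Elane and Ctsg were at 0 in ILCP and ILC1/3P. In CLP, Elane had 21 counts in CLP 3 alone and Ctsg 20 in CLP 2 alone. Other genes of that list were higher outside CLP at low levels: S100a9 had 0, 46 and 29 counts and was called in ILC1/3P against CLP (adjusted p = 0.0419). Without a count in CLP, S100a9 could not come out lower. S100a8 (0.675, 3.09 and 3.04 CPM) was not called, and Camp (0, 0.190 and 2.69 CPM) did not pass the filter. Erythroid genes summed to 7.54 to 16.5, 4.27 to 6.77 and 18.1 to 29.3 CPM, led by Hba-a1 at 4.35, 1.86 and 14.3 and Hba-a2 at 1.62, 1.41 and 6.81. Hba-a2 had 11 counts in ILC1/3P 1 and 50 in ILC1/3P 2. Others were highest in CLP: Klf1 had 45 counts there and none elsewhere. Hbb-bt was at 1.80, 1.22 and 0.576 CPM and Hbb-bs at 1.67, 0.984 and 0.987. None of the 5 erythroid genes tested was called. The source of such RNA, and its part in the CLP levels of Amd1, Srm and Oat, were not tested.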

How the data were processed

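Bulk RNA-seq libraries of 3 CLP, 3 ILCP and 2 ILC1/3P samples were used, grouped by their titles. Per the labels' protocols, cDNA was made in the cell lysate with a SMARTer Ultra Low kit, amplified by PCR and read on a NovaSeq6000. The authors deposited raw counts per gene, in whole numbers, and their own FPKM, and 0 columns were left unmapped. The submitters' processing notes name mm10 as the build. Not given in the sources used here are the aligner, the counter, the annotation and whether strand was used.

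The tests used edgeR 4.0.16 under R 4.3.3 with filterByExpr, TMM, and a robust quasi-likelihood fit to all 8 libraries with 1 mean per group. Standard errors come from the F statistic. The fit was tested on simulated data. Levels per length used GENCODE M21 transcripts, since lengths implied by the deposited FPKM differ from them. The FPKM served for the balance of Odc1, Azin1 and Oaz1 on the log2 scale, whose differences equal those from counts, and for the ratios given by FPKM. Floors are 3 counts and cover counting error only, as no molecular identifiers are described. PCR reads are not independent molecules.

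All members are named. Other list genes are named where called in a comparison with at least 20 CPM in the highest group, or as the 2 most abundant of a list of another cell type, and the Myc family in full. A gene of the pathway lists that this rule takes is counted but not reported here. Slc7a7, Azin2, Sat2, Il5, Il13, Il9r, Ptgdr2, S100a8, S100a9 and Camp were added after their values were seen. So were Apoa2, Fgb, Klf1, Hbb-bs, Hbb-bt, the complement genes and genes given at 0. Pattern likeness is the root mean square difference of centred log2 CPM with a prior count of 2. The members and lists were chosen with earlier results of these data known. Alternatives were other scalings, no filter, DESeq2 1.42.0, a fit of 2 groups, a replicate block, leaving out each library and, added after seeing the data, counts summed with near-identical copies (at least 20% of 50-base windows shared).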

Additional observations from a re-analysis of the deposited data

How the results depend on the processing

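Over 333 alternative values for the 9 tested genes, 293 kept direction and side of the threshold, 19 lost a call, 12 gained one and 9 turned direction. None of the turned values had been called. On leaving out 1 library, Sms ranged from -0.0095 (without CLP 1) to 0.64 in ILCP against CLP, from -3.01 to 0.12 (without CLP 2) and 0.71 (without ILC1/3P 2) in ILC1/3P against CLP, and from -3.34 to 0.38 (without ILC1/3P 2) against ILCP. Azin1 ranged from -0.89 to 0.23 (without ILC1/3P 1) in ILC1/3P against CLP and from -0.53 (without ILC1/3P 2) to 0.58 against ILCP, and the latter was -0.54 with library size scaling and -0.013 with the replicate block. Sat1 in ILC1/3P against ILCP was -0.21 with library size scaling.

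In ILCP against CLP, 526 genes were higher and 386 lower. DESeq2 gave 869 and 741, and no filter gave 602 lower. Leaving out 1 library gave 347 to 415 and 215 to 294, the lowest without ILCP 3 and without CLP 2. In ILC1/3P against CLP, 1592 and 1571 became 946 and 2807 with library size scaling, which moves the median of all genes by -0.67, and 1151 to 1385 and 1092 to 1584 on leaving out 1 library. In ILC1/3P against ILCP, 1083 and 1109 became 474 and 2141 with library size scaling (shift -0.64), and 623 to 1001 and 689 to 1233 on leaving out 1 library, the lowest without ILC1/3P 2 and ILCP 3.

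Members higher in ILCP against CLP fell from 2 to 1 with library size scaling and in a fit of those 2 groups, and were 1 to 2 on leaving out 1 library. Members lower went from 1 to 2 with DESeq2 and were 0 to 1 on leaving out 1. In ILC1/3P against CLP 3 to 4 were higher and 1 to 4 lower on leaving out 1. In ILC1/3P against ILCP members higher went from 1 to 0 and lower from 0 to 2 with library size scaling, and were 0 to 1 and 0 to 2 on leaving out 1. The cause of these shifts was not tested.

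With the replicate number as a block, 445 and 296, 1392 and 1232, and 944 and 809 genes were higher and lower in the 3 comparisons, and no member's call changed. Same-numbered libraries correlated at -0.03 to 0.09 in their deviations from group means. Among the ILCP libraries, CLP 1 correlated best with ILCP 1 (0.09) and CLP 2 with ILCP 2 (0.06). CLP 3 correlated better with ILCP 2 (0.03) than with ILCP 3 (-0.01). The deviations of the 2 ILC1/3P libraries mirror each other and cannot decide this. Same-numbered libraries are not stated to share an animal, so the numbers were not taken as pairs. Depth limits Arg2, with 17 counts in all, and Sms in ILC1/3P 2, with 16.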

Other observations

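The deposited FPKM rest on gene lengths that can be worked out from counts, FPKM and library totals, and for 6 of the 10 genes these lengths exceed the longest coding transcript of GENCODE M21 by a wide margin. For Arg1, Arg2, Oat and Amd1 they matched it, at 1476, 1428, 2155 and 3206 bases against 1477, 1428, 2152 and 3204. For Odc1 the implied length was 2547 against 2208, for Srm 1941 against 1338 and for Sms 7598 against 3717. For Azin1 it was 13735 against 4871, for Sat1 4895 against 1162 and for Oaz1 5376 against 1071, and there it also exceeded the union of all exons (6256, 2774 and 2558 bases), as it did for Srm (1599) and Sms (6010).

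The choice of length changes an order. By FPKM, Arg1 was above Oaz1 in ILC1/3P, at 667 and 401 in the 2 libraries against 198 and 226. By CPM per kb of the longest transcript Oaz1 was above Arg1 there, at 1508 ± 263 against 742 ± 204 (SD, n = 2). In ILCP Arg1 was above Oaz1 on both scales with the counts of each gene alone, but below it (1032 against 1373 CPM per kb) where the counts of Oaz1-ps were added to Oaz1. The same implied length applied in every library, so comparisons of a gene between populations do not depend on it.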
